A study of Homo sapiens with 6 samples.

Results

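The AP-1 subunit genes are the 10 FOS, JUN, ATF3 and BATF family members FOS, FOSB, FOSL1, FOSL2, JUN, JUNB, JUND, ATF3, BATF and BATF3. They were found by symbol among the 34675 genes of the authors' deposited table, and all 10 had 1 row each. The cells were U2932, an established human lymphoma line of the diffuse large B cell type, infected with 1 short hairpin RNA against PRDM11 (3 samples) or with a scrambled hairpin (3 samples) and kept in puromycin for 3 days. PRDM11 is a PR domain gene of transcription and chromatin regulation. The deposited values compare a condition A with a condition B, and no header or label says which of them is the knockdown, so both keep these names here. A single hairpin and a single cell line were used, and no label says that samples came from separate cultures, so the spread between them may be technical.

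AP-1 is a transcription factor made of pairs of bZIP proteins, which hold together through a leucine zipper and touch DNA with a basic region. JUN proteins can pair with each other or with FOS proteins, while FOS proteins need a JUN partner. FOS and JUN are textbook immediate early genes, switched on within minutes of a growth or antigen signal, and their messages are short-lived. ATF3 is induced by stress, and BATF and BATF3 lack the activation domain of FOS, pair with JUN proteins and act in lymphocytes and dendritic cells together with IRF4 or IRF8.

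The promoters of FOS and JUN, the members that differed most between the conditions, are shown with those of FOSB, the nearest relative of FOS, and JUND, the most abundant member. Each window runs from 250 bases before to 50 bases after the RefSeq start site in build GRCh38.p14, and capitals mark TGACGT, TGACGTCA, TGACATCA or TGACTCA on either strand. These are the shortened and the full cAMP response element and the JUN-type and the standard AP-1 site, of which the full element holds the shortened one. The windows are chr14:75278578-75278877 on the plus strand for FOS, chr19:45467746-45468045 on the plus strand for FOSB, chr1:58783998-58784297 on the minus strand for JUN and chr19:18281573-18281872 on the minus strand for JUND.
FOS: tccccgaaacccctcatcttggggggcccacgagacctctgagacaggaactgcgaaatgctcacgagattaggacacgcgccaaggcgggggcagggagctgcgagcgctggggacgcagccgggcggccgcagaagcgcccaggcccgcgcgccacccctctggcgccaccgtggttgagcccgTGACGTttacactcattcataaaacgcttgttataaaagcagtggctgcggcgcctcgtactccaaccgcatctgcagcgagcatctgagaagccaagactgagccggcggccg
FOSB: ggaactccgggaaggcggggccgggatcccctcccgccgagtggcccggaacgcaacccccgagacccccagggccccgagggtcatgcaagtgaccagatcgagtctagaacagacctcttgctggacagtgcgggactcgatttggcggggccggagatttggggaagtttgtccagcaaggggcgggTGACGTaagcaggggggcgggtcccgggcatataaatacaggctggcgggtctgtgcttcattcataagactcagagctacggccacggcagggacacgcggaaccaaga
JUN: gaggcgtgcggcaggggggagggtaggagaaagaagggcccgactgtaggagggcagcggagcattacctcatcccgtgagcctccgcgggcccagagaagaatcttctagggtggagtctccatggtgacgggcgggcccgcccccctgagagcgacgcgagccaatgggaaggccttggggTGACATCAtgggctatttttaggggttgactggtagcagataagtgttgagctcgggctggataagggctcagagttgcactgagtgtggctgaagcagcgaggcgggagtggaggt
JUND: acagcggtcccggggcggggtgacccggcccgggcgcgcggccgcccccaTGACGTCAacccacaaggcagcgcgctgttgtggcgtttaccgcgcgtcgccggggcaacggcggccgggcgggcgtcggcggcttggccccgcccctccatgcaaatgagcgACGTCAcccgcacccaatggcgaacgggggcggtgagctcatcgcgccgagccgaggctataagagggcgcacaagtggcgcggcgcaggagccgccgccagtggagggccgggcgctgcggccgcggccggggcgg

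The FOS window held TGACGT at positions -64 to -59 from the start site, and FOSB held it at -60 to -55. FOSL2 held it at -66 to -61, close to the place it takes in FOS and FOSB. JUN held no TGACGT but had TGACATCA at -67 to -60. JUND had the full TGACGTCA at -200 to -193 and a further TGACGT on the other strand at -87 to -82. Windows were at hand for 8 of the members, in 9 windows because ATF3 has a pair of start sites. TGACGT occurred in 4 of the 8 members and in 7.98% of all 35116 promoter windows of the table, TGACATCA in JUN and ATF3 and in 2.61% of windows, and TGACTCA in FOSL2 and in 4.95%. The letters TATAAA of the TATA box stood at -33 to -28 in FOS, -30 to -25 in FOSB and -31 to -26 in JUNB. In ATF3 they stood further out, at -230 to -225, and 11.5% of windows held them at any place. No member's window held a CArG box, the binding sequence of serum response factor (1.29% of windows), or the EGR site GCGGGGGCG (5.07%). Sequence more than 250 bases before the start site was not searched, so sites further out, in FOS or any other member, would be missed. A match is a string of letters and was not tested as a binding site, and TGACGT was added to the search after the FOS window had been read.

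AU-rich elements, built on ATTTA, are known to shorten the life of immediate early messages. FOS had 5 copies of ATTTA in a 3′ UTR of 806 bases and JUN 3 in 1287 bases, by GENCODE 29. FOS and FOSL2 were the members with the longer element TTATTTATT, which 7.66% of 15987 protein-coding genes had. The first stretch of 30 bases with the most copies, with ATTTA in capitals, shows overlapping copies in FOS (bases 625 to 654 of the 3′ UTR) and a single copy in JUN (bases 698 to 727).
FOS: acgttttattgtgtttttaATTTATTTAtt
JUN: tgtttctgaaaattccagaaaggatATTTA
Over the 10 members the density of ATTTA was 2.17 per kb of 3′ UTR, close to the 2.25 per kb of all protein-coding genes, and it ran from 0 in BATF to 6.2 per kb in FOS.

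For all 10 members, the reads in each of 3 libraries per condition could be worked back from the deposited means. The libraries had size factors of 1.21, 1.03 and 0.768 in condition A, against 1.09, 1.05 and 0.951 in condition B. Their recovered reads came to between 17900224 and 27793578 per library, which is part of the depth. The targeted gene PRDM11 had 268, 272 and 323 normalised reads in the libraries of condition A, below the 566, 516 and 545 of condition B. It was called lower in condition A, with a log2 ratio of -0.914 (adjusted p of 1.76e-08 by DESeq in the authors' deposited table). All 10 B cell markers had a mean of at least 1790 normalised reads, while the 4 listed T cell markers in the table reached at most 10.98. Summed over that list, T cell markers came to 18.4 normalised reads in condition A, against 8.80 in condition B. The T cell receptor gene segment TRAC, which the list does not hold, averaged 589 normalised reads in condition A, against 276 in condition B, and TRBC2 averaged 1249 in condition A, against 777 in condition B, by the authors' deposited table. Of 5 myeloid markers only CD33, and of 6 epithelial and fibroblast markers COL1A1 and EPCAM, had a mean of at least 50. Called by DESeq were 2 of the 10 B cell markers, and TRAC, which was higher in condition A (adjusted p = 0.000424 by the authors' deposited table), but 0 of the listed T cell, myeloid, epithelial and fibroblast markers. TRBC2 was not called (adjusted p of 0.141 by DESeq in the authors' deposited table). The B cell markers summed to 440600 normalised reads in condition A, against 351600 in condition B. The part of any of these in the differences below was not tested.

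FOS and JUN were higher in condition A, and none of the other 8 AP-1 genes passed the threshold in either direction. The threshold was a DESeq adjusted p under 0.05 in the authors' deposited table. The calls were thus 2 of 10 higher and 0 of 10 lower, with 4 of 10 under an unadjusted p of 0.05, as were 9.61% of all genes and 20.8% of those at a mean of 50 or more. Of all genes in the authors' deposited table, 2.54% were called in either direction, 0.966% higher and 1.57% lower in condition A. Among the 13565 genes with a mean of at least 50 normalised reads, 6.04% were called. Limma on the recovered reads and limma voom also called FOS and JUN alone among the members, where they called 8.96% and 8.64% of all genes tested. By branch, 1 of 4 FOS genes, 1 of 3 JUN genes and 0 of 3 ATF and BATF genes were called. The members were named with these results known, so the counts are a description.

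**Figure D1:**
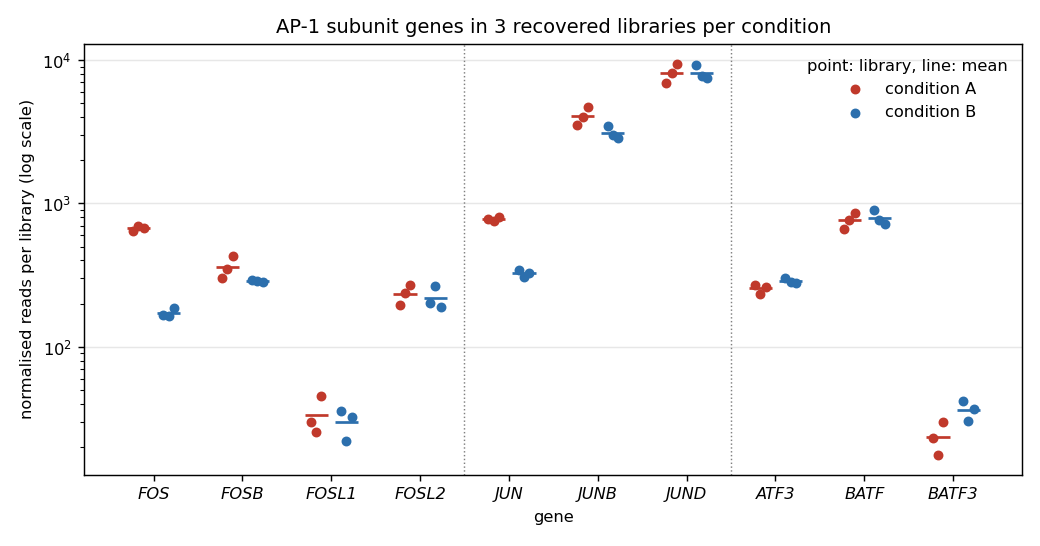
Normalised reads of the 10 AP-1 genes in each recovered library, on a log axis, with condition A (red) left of condition B (blue), points for libraries and lines for means. FOS and JUN show a wide gap between the conditions, from 643 to 693 against 165 to 185 normalised reads for FOS, while the points of JUND and BATF overlap.

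FOS, which gives the c-Fos subunit, had the largest ratio between the conditions among the 10 members. It had 643, 693 and 678 normalised reads in the libraries of condition A, against 168, 165 and 185 in condition B. The lowest library of condition A was thus far above the highest of condition B. The means were 671 ± 26.02 in condition A and 173 ± 11.03 in condition B (SD, n = 3 libraries each), 3.89-fold higher in condition A. The log2 ratio was 1.96, with a 95% interval of 1.74 to 2.17 from limma on the recovered reads. The adjusted p was 5.9e-37 by DESeq in the authors' deposited table, where FOS ranked 1 of all genes by p. FOS (ENSG00000170345) has 4 coding intervals on chromosome 14 between 75745686 and 75748124 in build hg19. In bulk RNA, more cells with FOS message and more message per cell cannot be told apart, here or for any gene below.

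FOSB, the closest relative of FOS, did not pass the threshold. Counts per gene do not separate it from its shorter splice form, ΔFosB. Its libraries held 302, 347 and 427 normalised reads in condition A, against 291, 288 and 282 in condition B. The groups did not overlap, but the lowest library of condition A was only just above condition B, and the spread was 63.3 (SD) in condition A and 4.50 in condition B. The log2 ratio was 0.32 and FOSB was not called in the authors' deposited table (adjusted p of 0.679 by DESeq). Its limma interval ran from 0.02 to 0.59. Without library 1 of condition A limma gave 0.42 with an adjusted p of 0.0486, and without library 3 it gave 0.17 with an adjusted p of 0.367. With any 1 of the other 4 libraries left out FOSB was not called.

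FOSL1 and FOSL2, which encode Fra-1 and Fra-2, showed no difference beyond the spread. FOSL1 was near the lower end of detection, with 36, 26 and 35 raw reads in condition A, against 39, 23 and 31 in condition B. FOSL2 had 196, 238 and 268 normalised reads in condition A, against 203, 264 and 188 in condition B. In both genes the libraries overlapped. The limma interval for FOSL2 ran from 0.843-fold to 1.37-fold, and that for FOSL1 from 0.724-fold to 1.67-fold, so moderate differences in FOSL1 could not be seen at this depth.

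JUN, the c-Jun subunit and the classical partner of FOS, was the second member called. Its libraries held 784, 750 and 810 normalised reads in condition A, against 343, 307 and 325 in condition B. As for FOS, the libraries of each condition lay close together and the conditions were wide apart. The means were 781 ± 29.9 in condition A, against 325 ± 18.1 in condition B (SD, n = 3 libraries each), 2.41-fold higher in condition A. The log2 ratio was 1.27 with a limma interval of 1.06 to 1.47 (adjusted p of 3.13e-17 by DESeq in the authors' deposited table). JUN (ENSG00000177606) has a single coding interval on chromosome 1 between 59247750 and 59248742 in build hg19.

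JUNB, a JUN protein with a weaker activating effect than c-Jun on many promoters, lay between the called and the flat members. It had 3513, 3984 and 4741 normalised reads in condition A, against 3488, 3002 and 2862 in condition B. The groups were separate by a narrow margin, since library 1 of condition A stood just above library 1 of condition B. The log2 ratio was 0.39 with a limma interval of 0.12 to 0.64 (adjusted p of 0.416 by DESeq in the authors' deposited table, limma adjusted p = 0.0688). Without library 1 of condition A the limma value was 0.48 with an adjusted p of 0.021. With any 1 of the other 5 libraries left out JUNB was not called, and the limma value was lowest without library 3 of condition A, at 0.27 (adjusted p = 0.103).

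JUND, known as the JUN family member most present in resting cells, had nearly the same mean in both conditions. Its libraries held 6947, 8063 and 9447 normalised reads in condition A, against 9300, 7743 and 7471 in condition B. The ranges overlap almost fully, and the means were 8152 ± 1252 in condition A and 8171 ± 987 in condition B (SD, n = 3 libraries each). The limma interval ran from 0.828-fold to 1.19-fold. No member had a log2 ratio nearer to 0, and none was more abundant.

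**Figure D2:**
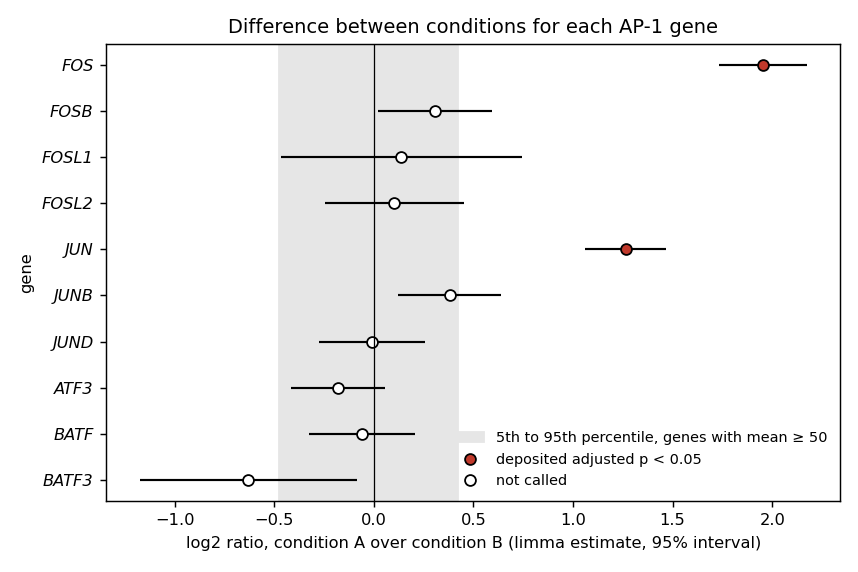
Log2 ratio of condition A over condition B for each AP-1 gene, with the limma estimate as a point and its 95% interval as a line, over the 5th to 95th percentile of all genes with a mean of at least 50 (grey, -0.48 to 0.42). Red points were called in the authors' deposited table, and FOS at 1.96 and JUN at 1.26 lie outside the grey band with their whole intervals.

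The ATF and BATF members all had log2 ratios below 0, and none was called. ATF3 had 271, 234 and 262 normalised reads in condition A, against 302, 285 and 280 in condition B. The libraries did not overlap, with all of condition A below condition B, and gave a log2 ratio of -0.18 and a limma interval of -0.41 to 0.05. BATF, which is required for class switching in B cells of the mouse, had 662, 769 and 859 normalised reads in condition A, against 895, 767 and 720 in condition B, and these overlap. Its log2 ratio was -0.06 with a limma interval of -0.32 to 0.21.

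BATF3, best known for its role in cross-presenting dendritic cells of the mouse, had the lowest ratio of the family and few reads. The libraries held 28, 18 and 23 raw reads in condition A, against 46, 32 and 35 in condition B. After scaling these were 23.2, 17.5 and 29.9 normalised reads in condition A and 42.2, 30.5 and 36.8 in condition B, separate by less than 1 normalised read at the nearest pair. The log2 ratio was -0.63 with a limma interval of -1.18 to -0.08 (adjusted p of 0.473 by DESeq in the authors' deposited table). In all, the libraries of the conditions did not overlap in 6 of the 10 members, where the same was seen in 32.9% of genes whose mean was 20 normalised reads or more, and in 34.3% of those at 50 or more.

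Ratios within libraries set FOS and JUN against their relatives. The log2 of FOS over each of the other 9 members, and of JUN over JUNB and over JUND, was taken in each library, which made 11 pairs. FOS and JUN were put on top with their larger ratios known, which fixes the direction, so the differences between the conditions are a description with no test. The difference of condition A minus condition B was 1.65 on the log2 scale for FOS against FOSB, 1.85 against FOSL2 and 1.96 against JUND. The difference was 0.69 for FOS against JUN, 0.88 for JUN against JUNB and 1.27 for JUN against JUND.

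Reads per kb of coding length put the members on 1 scale, so that their levels can be compared. On this scale JUND, JUNB and BATF held the first 3 places in both conditions. JUND stood at 7641 normalised reads per coding kb in condition A, against 7658 in condition B, and its mean over both was above that of 94.7% of the 17187 genes with coding intervals. FOS ranked 5 of 10 in condition A with 589 ± 22.8 per coding kb, against 8 in condition B with 151 ± 9.68 (SD, n = 3 libraries each). JUN ranked 4 in condition A, with 787 ± 30.1, against 5 in condition B, with 327 ± 18.3. In condition A the libraries of ATF3 and FOSB, and of BATF3 and FOSL1, overlapped, so these neighbours in the order did not differ beyond their spread. In condition B no neighbours overlapped. Per kb of the longest transcript FOS ranked 4 in condition A and 6 in condition B, where its libraries overlapped those of FOSB.

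**Figure D3:**
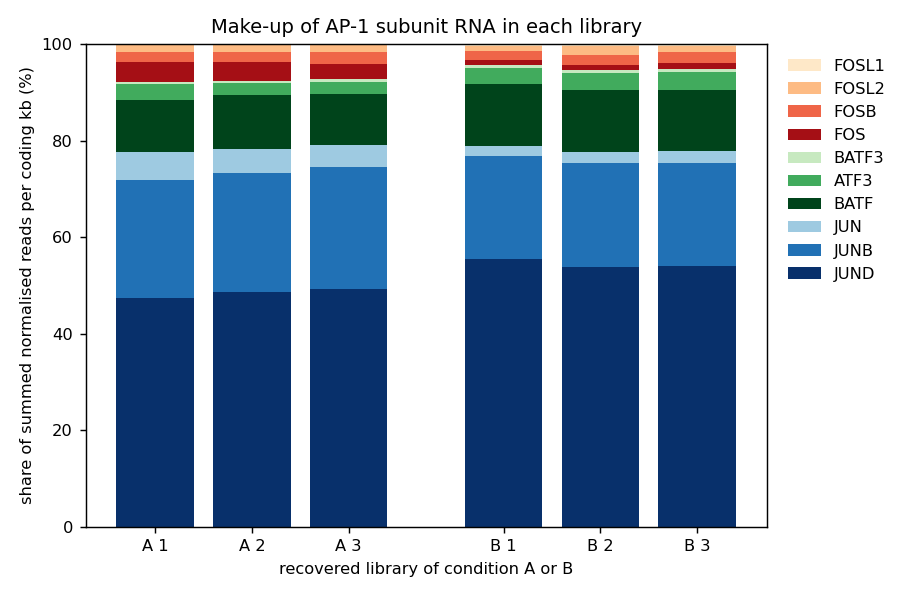
Share of each AP-1 gene, in percent of the normalised reads per coding kb summed over the 10 members, in the libraries of condition A (left) and condition B (right), stacked to 100%. JUND makes up 47.3 to 49.2% in condition A and 53.9 to 55.4% in condition B. The dark red FOS layer makes up 3.3 to 4.09% in condition A, against 0.936 to 1.26% in condition B.

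Summed over all 10 members, the level was 15770 ± 2130 normalised reads per coding kb in condition A and 14040 ± 1490 in condition B (SD, n = 3 libraries each). This 1.12-fold difference was within the spread (exact two-sided permutation p = 0.3). The FOS branch was 1.78-fold higher in condition A, at 1205 ± 121 in condition A and 678 ± 24.4 in condition B, with no overlap (exact two-sided permutation p = 0.1, the smallest possible). FOS made up most of this difference, since the other 3 genes of the branch summed to 617 ± 107 in condition A and 527 ± 32.5 in condition B, with overlap. The JUN branch came to 12350 ± 1780 in condition A and 10980 ± 1250 in condition B, with overlap. The ATF and BATF branch came to 2219 ± 226 in condition A and 2379 ± 235 in condition B, also with overlap. FOS held 3.77% ± 0.41 of the sum in condition A, against 1.09% ± 0.16 in condition B. JUN held 5.04% ± 0.62 in condition A, against 2.34% ± 0.17 in condition B. JUND held 48.4% ± 0.98 in condition A and 54.5% ± 0.80 in condition B, although its own level was nearly the same.

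JUNB, JUND, BATF and FOSB had the same order of libraries, highest in library 3 and lowest in library 1 of condition A, and highest in library 1 and lowest in library 3 of condition B. The order was not particular to them, since 13.2% of 12604 genes at a mean of 50 or more had it, EGR1 among them. Libraries are numbered by falling size factor, so the high library was the one of smallest size factor in condition A and the one of largest size factor in condition B. The part of depth in this spread was not tested. FOS did not show this order, and JUN shared the highest libraries but not the lowest. The ratio of JUNB to JUND had less spread than either gene. JUNB stood at 51.8, 50.6 and 51.4% of the JUND level per coding kb in the libraries of condition A, against 38.4, 39.7 and 39.3% in condition B. This ratio was picked after its values were seen and is given without a test.

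**Figure D4:**
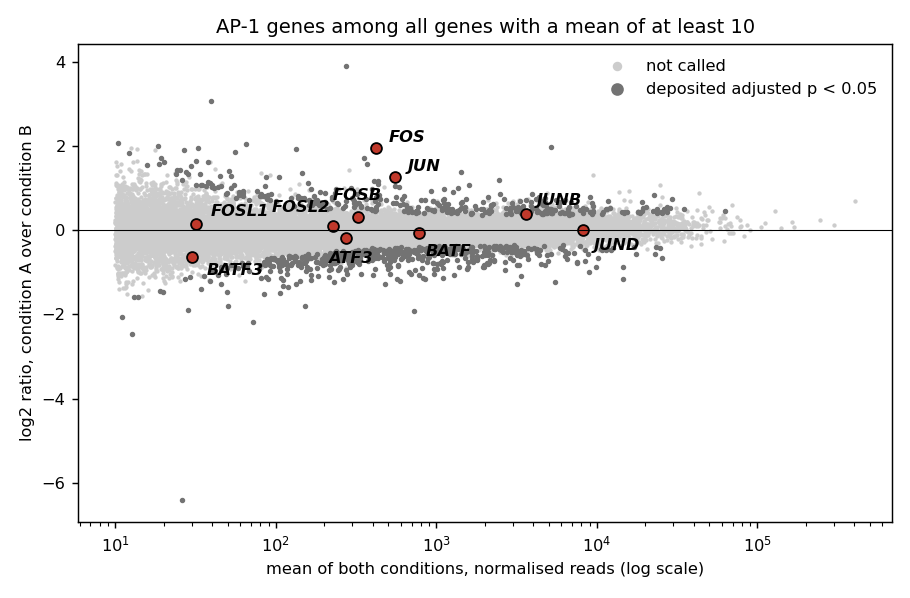
Log2 ratio of condition A over condition B against the mean of both conditions in normalised reads (log axis) for all genes with a mean of at least 10, with the 10 AP-1 genes in red and genes called in the authors' deposited table in dark grey. FOS and JUN stand above the cloud at middle levels, while JUND, with a mean of 8162 normalised reads, sits near 0.

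Several members lie side by side in the genome, which allows a look at their neighbours. Within 300 kb of the FOS coding region on chromosome 14 there are 8 genes with coding intervals and a mean of at least 50, and none of these was called in the authors' deposited table. Among all genes at that mean 6.04% were called, a share at which so few genes can hold no call. JDP2, a bZIP repressor that pairs with JUN, begins 151 kb from FOS and had 165, 148 and 193 normalised reads in condition A, against 183, 165 and 167 in condition B. These overlap, as do those of BATF, which begins 241 kb from FOS. In the authors' deposited table the log2 ratios of the other neighbours of FOS ran from -0.37 for MLH3, a mismatch repair gene, to 0.35 for ZC2HC1C, a zinc finger gene. The others were EIF2B2, ACYP1, NEK9 and TMED10. OMA1 and MYSM1 near JUN had log2 ratios of -0.05 and -0.15 and were not called in the authors' deposited table.

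ATF3 and BATF3 also share a locus, with 67.3 kb between their coding regions on chromosome 1. None of the 6 neighbours of ATF3 with a mean of at least 50 was called in the authors' deposited table, nor any of the 7 of BATF3. These sets, too, are small beside the 6.04% called among all genes at that mean. In the authors' deposited table NSL1, a kinetochore gene 27.4 kb from BATF3, had a log2 ratio of 0.07. FLVCR1, a heme exporter, had -0.18, TMEM206 -0.14, ANGEL2 -0.13, NENF -0.09, TATDN3 0.04 and PPP2R5A 0.01 also in the authors' deposited table.

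The genes nearest to FOS in log2 ratio, among called genes with a mean of at least 50, were EGR1, HIST1H4I, APOL5, DHRS2 and HIST2H2BE. Likeness here is the difference in log2 ratio over 2 conditions, and it was 0.0016 for EGR1, an immediate early zinc finger factor, and 0.40 for HIST2H2BE in the authors' deposited table. EGR1 had 7117, 8170 and 9349 normalised reads in condition A, against 2189, 2092 and 2043 in condition B. DHRS2, a short-chain dehydrogenase, was more even, with 534, 552 and 547 in condition A, against 180, 173 and 143 normalised reads in condition B. The histone gene HIST1H4I had 259, 216 and 161 normalised reads in condition A, against 61.4, 49.5 and 55.8 in condition B, and histone genes are alike enough in sequence for reads to be shared. The genes nearest to JUN were CYP26A1, VAV3, PRELP, CCL4 and ACY3, with differences in log2 ratio of 0.01 to 0.10 from JUN in the authors' deposited table. VAV3, a guanine exchange factor of antigen receptor signalling, had 3459, 3463 and 3403 normalised reads in condition A, against 1311, 1649 and 1529 in condition B. ACY3, an aminoacylase, was less even, with 476, 550 and 765 in condition A, against 302, 276 and 222 normalised reads in condition B.

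Of 18 other bZIP factors, most of them able to pair with AP-1 subunits, 1 was called higher in condition A and 0 lower by the adjusted p of the authors' deposited table, which is 5.56%. The 14 with a mean of at least 50 had a median log2 ratio of 0.09, where all genes of that level had a median of -0.00 (6.04% called). The called gene was BACH2, a repressor that keeps B cells from becoming plasma cells. It had 2177, 2394 and 2709 normalised reads in condition A, against 1652, 1954 and 1847 in condition B, and a log2 ratio of 0.42 (adjusted p of 0.0486 by DESeq in the authors' deposited table).

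Among 26 genes that act upstream of AP-1, from RAS and RAF to the JNK and ERK kinases and to SRF and its cofactors, 0 were called in either direction by DESeq in the authors' deposited table, with 4 of them under an unadjusted p of 0.05. Of all genes at a mean of 50 or more, 6.04% were called and 20.8% had such an unadjusted p, so neither count is larger than these shares. The median log2 ratio of the 25 with a mean of at least 50 was 0.12. The smallest p belonged to MKL2, a cofactor of SRF, and ELK3, an ETS factor that binds with SRF. MKL2 had 1200, 1129 and 1493 normalised reads in condition A, against 874, 922 and 929 in condition B (adjusted p of 0.0711 by DESeq in the authors' deposited table). ELK3 had 938, 1053 and 1230 in condition A, against 689, 842 and 756 normalised reads in condition B (adjusted p of 0.0728 by DESeq in the authors' deposited table). Limma on the recovered reads called both, with adjusted p of 0.0263 for MKL2 and 0.0307 for ELK3. MAPK9, which encodes JNK2, had a log2 ratio of -0.28 and MAP3K1, a kinase above JNK, 0.23, and neither was called in the authors' deposited table.

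Of 8 genes of AP-1 protein turnover, ubiquitin ligase subunits and the deubiquitinase USP28, 0 were called by DESeq in the authors' deposited table, and limma called 0 as well. DESeq called 6.04% of all genes at a mean of 50 or more, and limma 8.96% of all genes tested. At such shares so short a list can hold no call. USP28 was the 1 gene of this list with an unadjusted p under 0.05, as were 20.8% of all genes at a mean of 50 or more. Its log2 ratio was -0.26 (adjusted p of 0.384 by DESeq in the authors' deposited table). FBXW7, which marks c-Jun for breakdown, had a log2 ratio of 0.17, RFWD2 (COP1) -0.15 and DDB1 0.12 in the authors' deposited table.

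**Figure D5:**
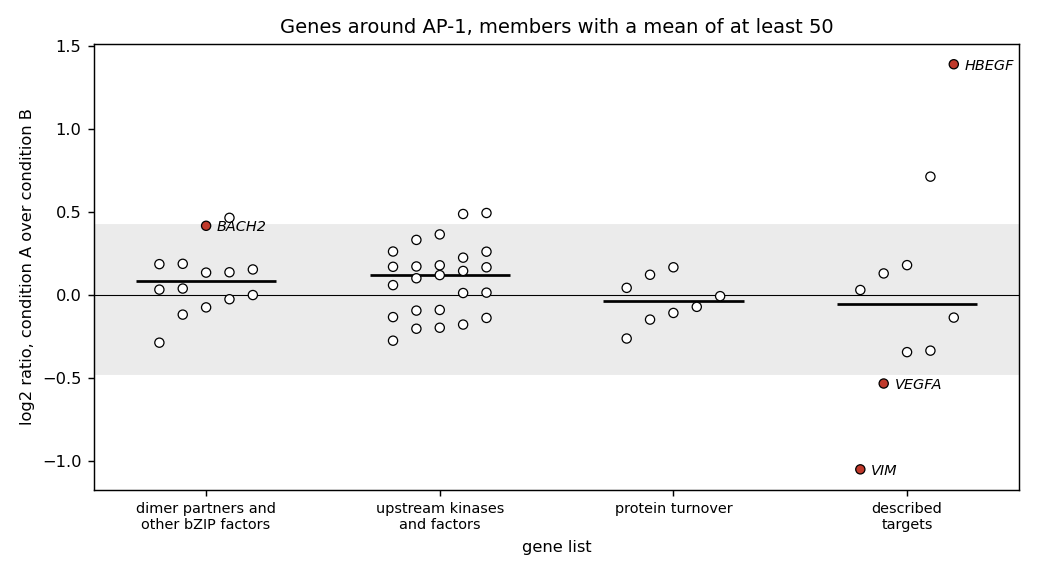
Log2 ratio of condition A over condition B for genes around AP-1 with a mean of at least 50, by list, with lines at the medians, filled points for genes called in the authors' deposited table and the 5th to 95th percentile of all such genes in grey. Called genes in the target list lie on both sides of 0, from HBEGF at 1.39 to VIM at -1.05.

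Of 23 genes described elsewhere as AP-1 targets, 1 was called higher and 3 lower in condition A by the adjusted p of the authors' deposited table. This is 17.4% of the list, against 2.54% of all genes in either direction, and the 10 with a mean of at least 50 had a median log2 ratio of -0.05. HBEGF, a growth factor of the EGF family, had 1929, 2073 and 2225 normalised reads in condition A, against 845, 748 and 780 in condition B. VIM, the intermediate filament vimentin, had 58.7, 82.9 and 88.5 normalised reads in condition A, against 151, 179 and 146 in condition B. VEGFA, the vascular growth factor, had 302, 287 and 329 in condition A, against 444, 442 and 442 normalised reads in condition B. SPP1, the secreted protein osteopontin, was low in both, with 7.44, 16.6 and 11.7 normalised reads in condition A, against 37.6, 56.2 and 40.0 in condition B. HMOX1, heme oxygenase, which was picked after its values were seen, averaged 2602 normalised reads in condition A, against 1587 in condition B, and was not called (adjusted p of 0.101 by DESeq in the authors' deposited table). Limma called it higher, with a log2 ratio of 0.73 and an adjusted p of 0.0279. The matrix proteases MMP1, MMP3 and MMP9 had at most 3.94 normalised reads in either condition in the authors' deposited table.

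Among partners and targets of BATF in lymphocytes, IRF4, PRDM1 and MYB were called higher in condition A by the adjusted p of the authors' deposited table. IRF8 (adjusted p of 0.206 by DESeq), IL21R (adjusted p of 0.228 by DESeq) and IL10 were not called there. Of all genes at a mean of 50 or more, 6.04% were called in either direction. These genes, like the lists above, were chosen with earlier results of these data known. IRF4, the partner of BATF on DNA, averaged 29040 normalised reads in condition A, against 21790 in condition B (log2 ratio 0.41, adjusted p of 0.0276 by DESeq in the authors' deposited table). PRDM1, the regulator of plasma cell fate, had 742, 766 and 907 normalised reads in condition A, against 502, 440 and 439 in condition B. MYB, a transcription factor of blood cell precursors, had 2500, 2792 and 2958 in condition A, against 1707, 1834 and 1793 normalised reads in condition B.

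The AP-1 site TGACTCA was also counted in the promoters of called genes, members left out. It occurred in 20 of 328 windows of genes called higher in condition A (6.1%) and in 20 of 527 windows of genes called lower (3.8%). Among 12458 windows of genes at a mean of 50 or more it occurred in 411 (3.3%), and among all 35116 windows, members included, in 4.95%. These shares are a description of letters near start sites and were not tested.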

How the data were processed

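RNA was sequenced from U2932 cells with a hairpin against PRDM11 (n = 3) or a scrambled hairpin (n = 3). The submitters' processing notes name build hg19 and the tools STAR, HTSeq 0.5.4p5 and DESeq 1.14.0, without roles. Not given in the sources used here were the annotation and the strand setting, so reads of overlapping and antisense genes cannot be told apart. The deposited means are a signal: counts that the authors scaled by size factors, judged from the file's column names. The deposited fold and log2 columns are condition B over condition A, per the file headers and recomputed from the means, and ratios were turned to condition A over condition B. The deposited p-value and adjusted p-value are from the authors' DESeq run, and the deposited score of the interval file was not used. Intervals were counted with both ends, since 92.5% of genes with 1 interval then had a length that is a multiple of 3. The tables hold no column per sample, so 0 such columns were left out.

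Since a mean adds up 3 read counts, each times a constant weight, and is printed to 15 digits, reads per library were found by an integer search. All triples were searched up to a mean of 1000, and up to 10000 those with each library at 0.6 to 1.6 times the mean. Both conditions gave 1 solution in 33714 of 34675 rows, or 52.6% (condition A) and 54.5% (condition B) of all normalised reads. The search was tested on simulated means. Without that window, all members but JUND had 1 solution per condition, and JUND had 2 others in condition A, each with a library at least 2.11-fold from the mean. Library numbers run from the largest size factor down and tie to no replicate of the labels.

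The design assumed counts per sample, and the files hold condition means only, so the authors' adjusted p under 0.05 (DESeq, Benjamini-Hochberg over all genes) gave the calls. Intervals came from limma 3.58.1 in R 4.3.3 on log2(normalised reads + 1) of the 16652 genes with 10 or more on average, which was tested on simulated data. Permutation tests were exact (scipy 1.17.1). Promoters are from RefSeq (GRCh38.p14), and 3′ UTRs and transcript lengths from GENCODE 29, which matched all 10 members. The members, lists and tests were chosen with earlier results of these data known. Named were all members, called genes of each list or the up to 4 with the smallest p, the 5 genes nearest to FOS and JUN, neighbours within 300 kb and PRDM11. A gene that this rule names, and the list that holds it, are not reported here. Intervals cover these libraries only.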

Additional observations from a re-analysis of the deposited data

How the results depend on the processing

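FOS and JUN were called under every alternative with a test, and all alternatives gave log2 ratios of 1.90 to 2.01 for FOS and 1.22 to 1.32 for JUN. The alternatives were limma on log2 values, limma voom, upper quartile, total-read and median-of-ratios scaling, pseudocounts of 1 and 10, adjustment over genes with a mean of at least 10 or 100, and each library left out in turn. With 1 library left out, 2 to 4 members were called. The 4, without library 1 of condition A, were FOS, JUN, JUNB and FOSB, and upper quartile scaling called 3, with JUNB at 0.44 (limma adjusted p = 0.0478). Upper quartile scaling moved the median of all genes to 0.04 and turned JUND to 0.046. Leaving out 1 library gave log2 ratios of -0.10 to 0.31 for FOSL1, -0.0013 to 0.24 for FOSL2, -0.12 to 0.10 for JUND and -0.15 to 0.041 for BATF, so the direction of these 4 was not fixed. The number of all genes called by limma was 1492 of 16652 with all libraries. It was 2157, 374 and 1607 without library 1, 2 or 3 of condition A, and 1004, 355 and 369 without library 1, 2 or 3 of condition B. The summed level of all members stayed within 0.06 to 0.26 (log2) with 1 library left out, at 0.16 per transcript kb and at 0.19 with no length scaling. Upstream kinases and factors, a list of 26 genes, had 2 calls, MKL2 and ELK3, under limma, voom and both adjustments over fewer genes. In the same order these settings called 8.96%, 8.64%, 6.68% and 8.96% of all genes tested, so 2 calls lie near these shares. The cause of the changes between settings was not tested. The planned count-model tests with TMM scaling were not run, and limma and voom on the recovered reads took their place. No paired analysis was possible because the recovered libraries carry no replicate number of the labels. Few reads limit FOSL1 and BATF3.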
